A study of Danio rerio with 16 samples.

Results

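The cholinergic genes described here code for the proteins that make, store, take back, sense and break down acetylcholine. They are ache, chata, slc18a3a, slc18a3b, slc5a7a and the nicotinic receptor subunit genes chrna3, chrna5, chrna6, chrnb3a and chrnb3b, chosen by symbol in the tables of eye and of brain. Of the 10 names, 9 matched a row among the 31901 genes of each table, and slc18a3b matched none. RNA was sequenced from eyes and brains dissected from wildtype zebrafish at 120 hours post fertilization (hpf). One group of larvae was kept from 6 hpf until dissection with IPP at 0.2 uM, dissolved in DMSO at 0.02%, and its control group with DMSO at 0.02% alone. IPP is phenol isopropylated phosphate, an organophosphate ester used as a flame retardant and plasticizer, and the study title names deficits of the larval photomotor response as its subject. Eyes of IPP larvae, eyes of DMSO larvae, brains of IPP larvae and brains of DMSO larvae each had 4 libraries, 16 in all.

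Acetylcholine is made from choline and acetyl-CoA by choline acetyltransferase, loaded into synaptic vesicles by the vesicular acetylcholine transporter and cleaved in the synaptic cleft by acetylcholinesterase, after which a high-affinity transporter returns the choline to the nerve terminal. Nicotinic receptors are ion channels assembled from several alpha and beta subunits, and the subunit mix sets their pharmacology. In the vertebrate retina the starburst amacrine cells release acetylcholine, and in the brain cranial motor neurons and the habenula are among the cholinergic cell groups. Several organophosphates are known to block the acetylcholinesterase enzyme, which is a change of the protein's activity and is not read by RNA levels.

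The deposited values are FPKM, fragments scaled by gene length and by a total for each library, in 1 table per tissue. The reads behind them, rebuilt from the values, came to between 10.6 and 12.5 M in each eye library and between 9.62 and 16.3 M in each brain library. The scaling total was not equal to these reads and lay on either side of them. It was 15.1 M against 16.3 M reads in IPP brain replicate 4, and 13.0 M against 12.0 M reads in DMSO eye replicate 4. The part of this in differences between FPKM and rescaled values was not tested. The labelled tissues matched their markers. The 13 photoreceptor genes summed to 16884 to 20437 FPKM in eye libraries and 3.499 to 174 FPKM in brain libraries, and the 16 brain region genes summed to 44.2 to 65.4 FPKM in eyes and 404 to 592 FPKM in brains. Some brain libraries stood apart by markers of other tissues. The 12 skin genes summed to 35.6, 39.1, 2085 and 1615 FPKM in IPP brain replicates 1 to 4, against 58.4, 330.3, 509 and 2060 FPKM in DMSO brain replicates 1 to 4. The 17 skeletal muscle genes summed to 67.6, 51.3, 256 and 1118 FPKM in IPP brains, against 75.2, 105, 199.8 and 1213 FPKM in DMSO brains. Whether replicate libraries stand for different clutches or pools of larvae is not stated in the labels, and a p-value here covers no more than the spread between libraries, which may be technical.

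Levels across tissues are given as TPM, transcript levels scaled to a fixed sum per library, computed from the FPKM. Each tissue's table was scaled on its own, so the tissue levels are a description without a test. ache, the acetylcholinesterase gene, lay at 25.2 ± 4.08 TPM in IPP eyes and 31.7 ± 4.27 TPM in DMSO eyes, and at 111 ± 30.9 TPM in IPP brains and 120 ± 9.21 TPM in DMSO brains (SD, n = 4 each). With DMSO, brain was 3.79-fold above eye, and the tissues' ranges did not overlap. Among protein-coding genes, ache stood at percentile 85.5 in DMSO eyes and percentile 94.9 in DMSO brains. chrna5, which codes for an accessory alpha subunit, had the largest tissue gap of the 9 genes, with 2.25 TPM in DMSO eyes and 59.0 TPM in DMSO brains, a brain level 26.2-fold higher. chrna3, chata and slc5a7a also lay higher in DMSO brains than in DMSO eyes, by 2.02-fold, 1.45-fold and 1.89-fold, with ranges apart.

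Other members lay higher in the eye. chrnb3b, a beta subunit gene, had 13.7 TPM in DMSO eyes and 1.26 TPM in DMSO brains, an eye level 10.8-fold higher. chrna6, whose mouse counterpart is known from retinal ganglion cells and midbrain dopamine neurons, was 4.69-fold higher in DMSO eyes at 6.94 TPM, against 1.48 TPM in DMSO brains. slc18a3a, which codes for a vesicular acetylcholine transporter, was 1.69-fold higher in DMSO eyes, at 79.5 TPM against 47.1 TPM in DMSO brains. It was the highest of the 9 genes in DMSO eyes, at percentile 94.3 of protein-coding genes. chrnb3a, the paralog of chrnb3b, had 29.0 TPM in DMSO eyes and 35.8 TPM in DMSO brains, and these ranges overlapped. The order over the 4 groups, in TPM, mostly followed tissue. For ache, chrna5, chrna6 and chrnb3b the IPP and DMSO ranges overlapped within each tissue and the 2 tissues lay apart, while slc18a3a had IPP eyes and DMSO eyes apart and IPP eyes overlapping DMSO brains. For chata, slc5a7a, chrna3 and chrnb3a every neighbouring pair of groups in that order overlapped.

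**Figure D1:**
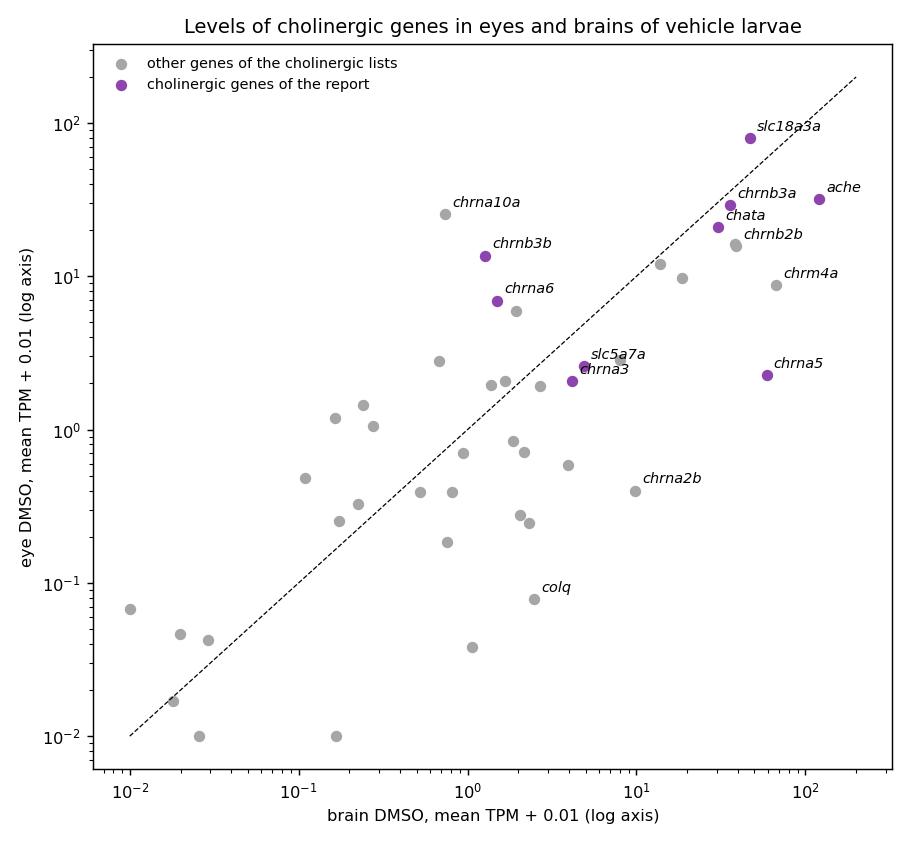
Mean TPM + 0.01 of each cholinergic gene in DMSO brains (x axis) against DMSO eyes (y axis), both on log scales. Other genes of cholinergic roles are shown in grey. chrna5 and ache sit below the line of equal levels and chrnb3b and chrna6 above it.

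Ratios within a library do not depend on how the tables were scaled. In eyes, slc18a3a was 3.56 ± 0.338 times chata with IPP and 3.85 ± 0.535 times with DMSO. In brains the same ratio was 1.60 ± 0.204 with IPP and 1.55 ± 0.236 with DMSO (SD, n = 4). Each gene's fragments are counted per length, so these are ratios of levels. slc18a3a thus exceeded chata by a larger factor in eyes than in brains in both treatments, as a description without a test. A second row named SLC18A3 in the reference gene table, CABZ01112647.1, is not part of this ratio. It had 0.844 TPM in IPP eyes and 0.417 TPM in DMSO eyes, and 21.5 TPM in IPP brains and 18.5 TPM in DMSO brains. The ratio therefore does not cover all transporter RNA in brains. Both genes lie on chromosome 13 on the minus strand, chata at 29406814 to 29421331 and slc18a3a at 29422049 to 29424454, 717 bases apart with 0 genes between them, in coordinates of a build not given in the sources used here. In mammals the vesicular transporter gene lies within the choline acetyltransferase locus.

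In eyes, IPP larvae had lower levels of most cholinergic genes than DMSO larvae, but no gene passed the test. Of the 9 members tested, 8 lay lower, where 50.5% of all genes tested did, and 1 lay higher in IPP eyes, and 0 passed the adjusted threshold of 0.05 in limma. In this comparison 0.0% of the 17096 genes tested passed. At an unadjusted p under 0.05 limma listed 6 members, all lower in IPP eyes, where 5.73% of all genes tested lay lower and 5.3% higher at that level (11.0% in either direction). limma-voom on the rebuilt reads also called 0 and listed 6. The IPP and DMSO ranges did not overlap for 5 members, all lower in IPP eyes, against 3.54% of all genes tested lower and 2.22% higher. With the libraries rescaled to TPM, which moves them against each other, the groups did not overlap for 1 member, slc18a3a, lower in IPP eyes, against 2.55% of all genes lower and 2.02% higher. On that scale limma listed 4 members at an unadjusted p under 0.05, all lower, against 3.77% of all genes lower and 5.44% higher. Without IPP eye replicates 3 and 4, left out after seeing the data, 8 members lay lower and limma listed 2, both lower, against 4.44% of all genes lower and 3.95% higher. The median log2 change of the 9 members was -0.38, against -0.00 over all genes tested. The members were chosen with earlier results of these data known, so these shares are not independent evidence. In whole tissue, fewer cells of a type and less RNA per cell cannot be told apart.

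ache, at chromosome 7, 26077153 to 26087807, minus strand, had 13.7, 12.7, 10.5 and 11.5 FPKM in IPP eyes, against 17.1, 17.6, 13.3 and 15.2 FPKM in DMSO eyes. The 2 ranges touched only through IPP replicate 1 and DMSO replicate 3. The means were 12.09 ± 1.38 FPKM in IPP eyes and 15.8 ± 1.96 FPKM in DMSO eyes (SD, n = 4 each). On log2(FPKM + 0.5), the scale of every change given here, the difference was -0.37 (SE 0.12, 95% interval -0.64 to -0.10), with an adjusted p of 0.352 in limma. Without IPP replicates 3 and 4 it was -0.24. ache rested on 561 to 945 reads per eye library. It overlaps CT027989.1 on the opposite strand, and the labels describe both a strand-keeping and an unstranded library preparation, so reads of the overlap cannot be assigned with certainty.

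chata, which codes for choline acetyltransferase, had 8.89, 8.17, 7.43 and 6.94 FPKM in IPP eyes, against 10.01, 10.9, 9.38 and 11.1 FPKM in DMSO eyes. In FPKM every IPP eye lay below every DMSO eye, while in TPM the groups overlapped. Its log2 change was -0.38 (SE 0.11), with an adjusted p of 0.338 in limma. slc18a3a had 30.9, 28.2, 24.3 and 28.1 FPKM in IPP eyes, against 40.5, 47.0, 36.9 and 34.3 FPKM in DMSO eyes. Here the groups did not overlap on either scale, and in FPKM the gap between IPP replicate 1 and DMSO replicate 4 was the narrowest point. The log2 change of slc18a3a was -0.50 (SE 0.12), with an adjusted p of 0.303 in limma, and its means were 27.8 ± 2.70 FPKM in IPP eyes and 39.7 ± 5.52 FPKM in DMSO eyes. slc5a7a, which codes for the high-affinity choline transporter, had 1.36, 1.02, 0.993 and 1.14 FPKM in IPP eyes, against 1.74, 1.55, 0.864 and 0.989 FPKM in DMSO eyes. The slc5a7a groups overlapped over most of their range, with the 2 highest and the 2 lowest values both from DMSO eyes, and the log2 change was -0.11 (SE 0.21, adjusted p 0.877 in limma).

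Among the receptor subunits, chrnb3b showed the largest log2 change of the 9 genes. It had 5.47, 3.86, 2.62 and 2.26 FPKM in IPP eyes, against 6.61, 7.70, 6.12 and 6.74 FPKM in DMSO eyes. In FPKM all IPP eyes lay below all DMSO eyes, and IPP replicates 3 and 4 lay lowest. In TPM the groups overlapped. The means were 3.55 ± 1.45 FPKM in IPP eyes and 6.79 ± 0.659 FPKM in DMSO eyes, and the log2 change was -0.91 (SE 0.23, 95% interval -1.42 to -0.40) with an adjusted p of 0.303 in limma. Without IPP replicates 3 and 4 it was -0.51, which is over 1.5 times smaller. chrnb3b overlaps itga6l on the opposite strand.

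chrna6 and chrnb3a lie 69680 bases apart on chromosome 1, both on the minus strand, with 1 gene between them. chrna6 had 2.29, 2.58, 2.33 and 2.44 FPKM in IPP eyes, against 2.60, 4.82, 3.14 and 3.29 FPKM in DMSO eyes. chrnb3a had 10.9, 10.3, 11.0 and 10.9 FPKM in IPP eyes, against 11.3, 20.2, 13.1 and 13.3 FPKM in DMSO eyes. For both genes the groups did not overlap in FPKM, the IPP eyes lay close together and DMSO replicate 2 was far above the rest. In TPM the groups overlapped for both. The log2 changes were -0.42 (SE 0.18) for chrna6 and -0.38 (SE 0.16) for chrnb3a, with adjusted p of 0.434 and 0.428 in limma. Without DMSO eye replicate 2 they were -0.27 and -0.21.

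The other alpha subunit genes lay lower in level, with overlapping groups. chrna3, a subunit best known from autonomic ganglia, had 1.15, 0.622, 0.684 and 0.567 FPKM in IPP eyes, against 0.930, 1.07, 0.870 and 1.199 FPKM in DMSO eyes. IPP replicate 1 lay within the DMSO range and the other IPP eyes lay below it, with a log2 change of -0.29 (SE 0.20, adjusted p 0.613 in limma). chrna3 overlaps zgc:158464 and ube2q1 on the opposite strand. chrna5 was the 1 member with a higher mean in IPP eyes. It had 1.51, 1.60, 1.49 and 1.06 FPKM in IPP eyes, against 1.15, 1.37, 0.847 and 1.101 FPKM in DMSO eyes, a log2 change of 0.24 (SE 0.18, adjusted p 0.639 in limma). chrna5 rested on only 16 to 37 reads and chrna3 on 23 to 53 reads per eye library.

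**Figure D2:**
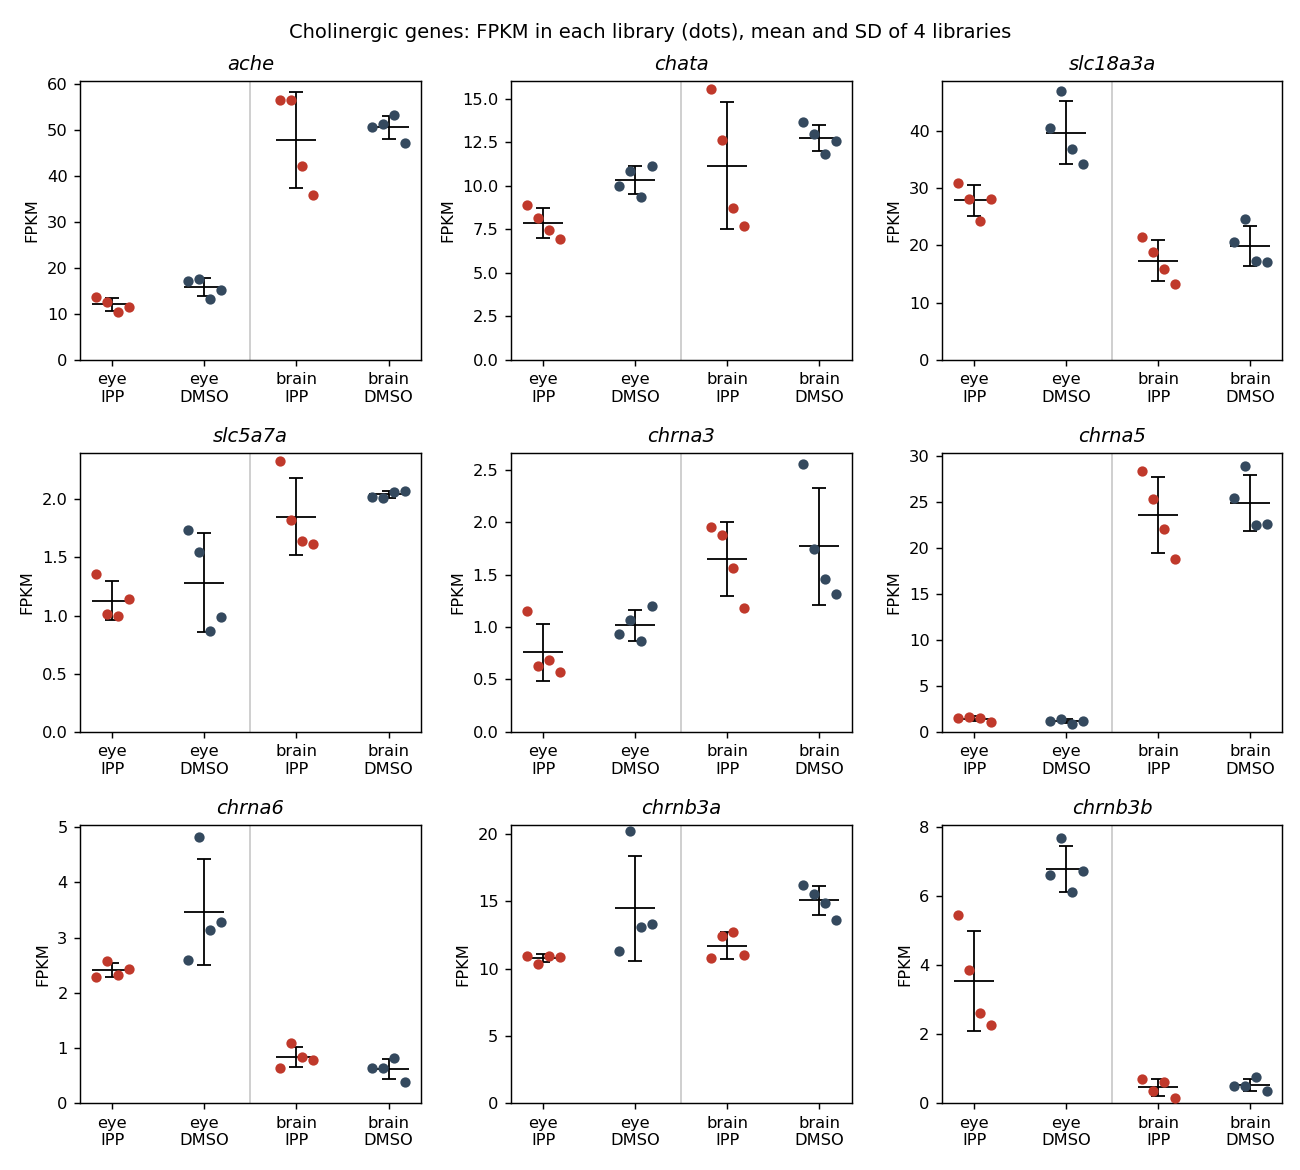
FPKM of each cholinergic gene in every eye and brain library, IPP left of DMSO in each tissue, with the group mean and bars of 1 SD over 4 libraries. On this FPKM scale, in eyes the IPP points of chata, slc18a3a, chrna6, chrnb3a and chrnb3b all lie below the DMSO points, and in brains those of chrnb3a do.

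The members were also described library by library. IPP eye replicate 4 lay below the mean of the 8 eye libraries for 9 of 9 members. IPP eye replicates 2 and 3 did so for 8 of 9, and IPP eye replicate 1 for 5 of 9. DMSO eye replicate 2 lay above that mean for 9 of 9 members and was the highest of the 8 for 5 of them. With 8 of 9 members lower in IPP eyes, these counts partly restate the group difference. The share of all genes below the mean in each library was not computed. Markers of several cell types also differed between the eye groups. The 12 genes of mature neurons summed to 1073 to 1148 FPKM in IPP eyes and 1218 to 1494 FPKM in DMSO eyes, and 11 of 12 lay lower in IPP eyes with a median log2 change of -0.31. All 9 retinal ganglion cell genes lay lower in IPP eyes, with sums of 236 to 291 FPKM in IPP eyes and 346 to 460 FPKM in DMSO eyes and a median log2 change of -0.66. The starburst amacrine list holds slc18a3a and chata. Its other 5 genes summed to 205 to 219 FPKM in IPP eyes and 207 to 258 FPKM in DMSO eyes, ranges that overlapped, and 4 of 5 lay lower with a median log2 change of -0.15. Of these, megf10 had 3.33 ± 0.573 FPKM in IPP eyes and 3.56 ± 0.572 FPKM in DMSO eyes, and fezf1 had 10.2 ± 1.44 FPKM in IPP eyes and 9.93 ± 1.013 FPKM in DMSO eyes. megf10 and fezf1 do not stand for all 5 genes. The rest, isl1, sox2 and tfap2b, were the most abundant of the list in eyes and are not given singly. Of all 7 genes of the list, limma gave 4 an unadjusted p under 0.05, all lower in IPP eyes. chata and slc18a3a were among them, and the others came from the 5 genes that are not members. Of all genes tested, 5.73% lay lower at that level. limma also listed 8 of the 12 mature neuron genes and 7 of the 9 retinal ganglion cell genes there, all lower in IPP eyes. None of the genes of these 3 lists was at 0 in all eye libraries. Skeletal muscle genes summed to 62.9 to 139.7 FPKM in IPP eyes and 101 to 282 FPKM in DMSO eyes, with 3 of 17 at 0 in all eye libraries. Of the 12 muscle genes tested 11 lay lower and 1 higher in IPP eyes, with a median log2 change of -0.49. Skin and blood cell genes mostly lay higher in IPP eyes. Of the 10 skin genes tested 9 lay higher, with a median log2 change of 0.28, and the 12 skin genes, 1 of them at 0 in all eye libraries, summed to 2661 to 4057 FPKM in IPP eyes and 2328 to 3472 FPKM in DMSO eyes. IPP eye replicate 4, below the mean for 9 of 9 members, had the highest skin sum. DMSO eye replicates 4 and 3 had the next highest, 3472 and 3392 FPKM. They lay above the mean for 7 and 6 of 9 members. Of the 9 blood cell genes tested 6 lay higher, with a median of 0.26, and the 10 genes summed to 554 to 725 FPKM in IPP eyes and 385 to 697 FPKM in DMSO eyes, with none at 0 in all of them. The part of these cell type differences in the cholinergic values was not tested.

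In brains no cholinergic gene passed the test between IPP and DMSO larvae. A difference shared by the members was not tested. Of the 8 members tested, 7 had lower means in IPP brains, where 46.9% of all genes tested did, 1 had a higher mean, and 0 passed the adjusted threshold in limma, where 0.0% of the 17533 genes tested passed. At an unadjusted p under 0.05 limma listed 1 member, chrnb3a, lower in IPP brains, where 1.36% of all genes tested lay lower and 1.56% higher at that level (2.92% in either direction). limma-voom called 0 and listed 1. The groups did not overlap for 1 member, chrnb3a again, against 1.1% of genes tested with all IPP values below the DMSO values and 0.958% with all above. The median log2 change was -0.11, against 0.01 over all genes tested.

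chrnb3a had 10.8, 12.4, 12.7 and 11.0 FPKM in IPP brains, against 16.2, 15.5, 14.9 and 13.6 FPKM in DMSO brains. All 4 IPP brains lay below all 4 DMSO brains. The means were 11.7 ± 0.979 FPKM in IPP brains and 15.1 ± 1.09 FPKM in DMSO brains (SD, n = 4 each), and the log2 change was -0.35 (SE 0.09, 95% interval -0.56 to -0.14), with an adjusted p of 1.0 in limma. The part of the skin and muscle differences between the brain libraries in this value was not tested. Without IPP replicates 3 and 4 the change was -0.37.

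ache had 56.6, 56.7, 42.2 and 35.9 FPKM in IPP brains, against 50.7, 51.2, 53.3 and 47.1 FPKM in DMSO brains. IPP replicates 1 and 2 lay above all DMSO brains and IPP replicates 3 and 4 below all of them. The SD was 10.5 FPKM in IPP brains and 2.59 FPKM in DMSO brains, and the log2 change was -0.11 (SE 0.15, adjusted p 1.0 in limma). chata was also spread widely over the IPP brains, with 15.6, 12.6, 8.71 and 7.67 FPKM in IPP brains, against 13.6, 13.0, 11.8 and 12.6 FPKM in DMSO brains. Its log2 change was -0.24 (SE 0.21, adjusted p 1.0 in limma), and IPP replicate 1 was above and IPP replicates 3 and 4 below every DMSO brain. The change of chata was -0.41 without IPP replicate 1, -0.14 without IPP replicate 3 and -0.08 without IPP replicate 4. slc18a3a had 21.4, 18.9, 15.8 and 13.2 FPKM in IPP brains, against 20.5, 24.6, 17.3 and 17.0 FPKM in DMSO brains. slc5a7a had 2.33, 1.82, 1.64 and 1.61 FPKM in IPP brains, against 2.02, 2.01, 2.06 and 2.07 FPKM in DMSO brains. The DMSO brains held slc5a7a within a narrow band that the IPP brains straddled, and the log2 changes were -0.20 (SE 0.17) for slc18a3a and -0.12 (SE 0.16) for slc5a7a. For slc18a3a the change was -0.31 without IPP replicate 1, -0.08 without IPP replicate 4 and -0.09 without DMSO replicate 2.

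The receptor subunit genes other than chrnb3a were also spread over overlapping ranges in brains. chrna5, the most abundant of them, had 28.4, 25.3, 22.002 and 18.8 FPKM in IPP brains, against 25.4, 28.9, 22.5 and 22.6 FPKM in DMSO brains, a log2 change of -0.08 (SE 0.14). chrna3 had 1.95, 1.88, 1.57 and 1.18 FPKM in IPP brains, against 2.56, 1.75, 1.45 and 1.32 FPKM in DMSO brains, a log2 change of -0.07 (SE 0.22). chrna6 was the member with the higher mean in IPP brains, at 0.840 ± 0.188 FPKM in IPP brains and 0.622 ± 0.176 FPKM in DMSO brains, a log2 change of 0.26 (SE 0.23). chrnb3b had 0.702, 0.362, 0.624 and 0.156 FPKM in IPP brains, against 0.493, 0.501, 0.765 and 0.354 FPKM in DMSO brains. It missed the level needed for testing, a mean of 0.5 FPKM, and rested on 6 to 26 reads per library; with no filter its log2 change was -0.12 (SE 0.23).

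**Figure D3:**
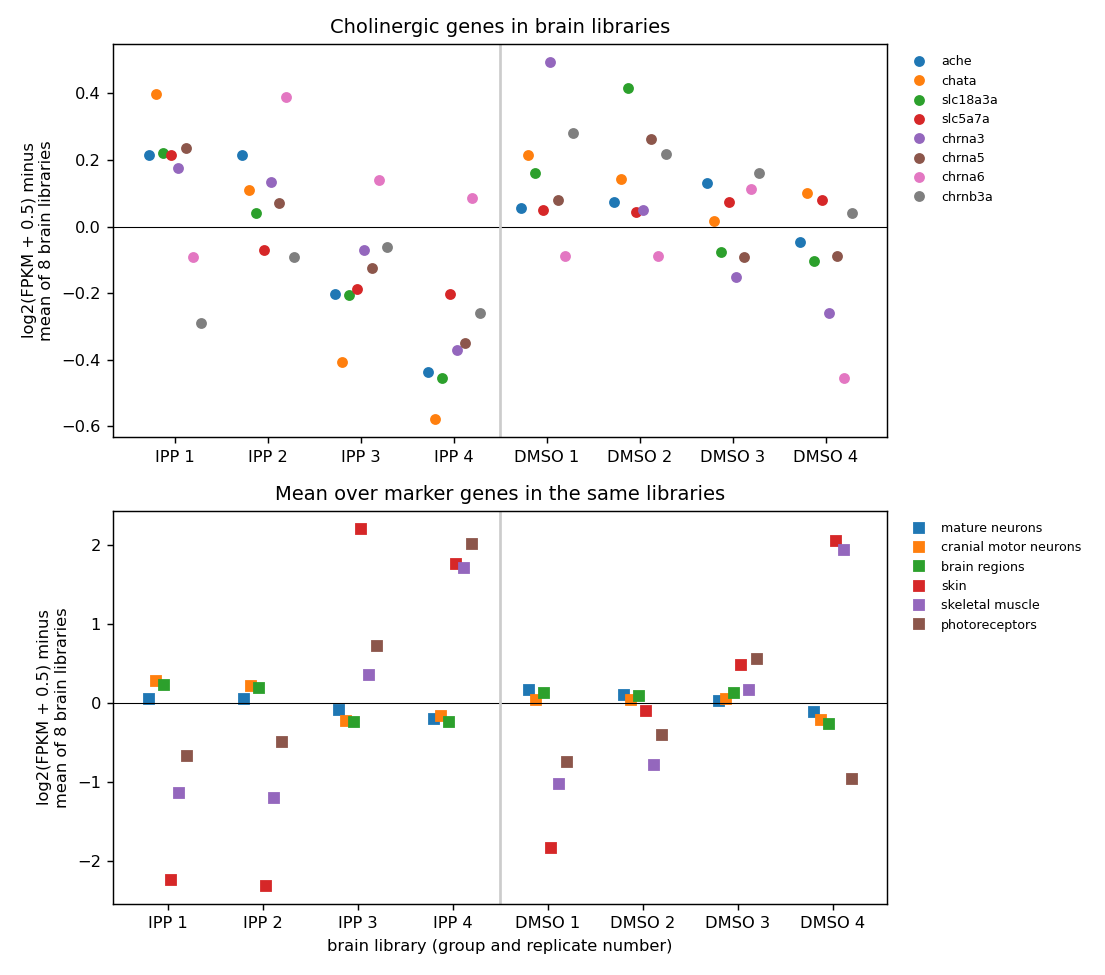
Upper panel: log2(FPKM + 0.5) of each cholinergic gene except chrnb3b in each brain library minus its mean over the 8 brain libraries, IPP left of DMSO. Lower panel: the same difference averaged over markers of mature neurons, cranial motor neurons, brain regions, skin, skeletal muscle and photoreceptors, on an axis of its own scale. IPP brains 3 and 4 lie low for most cholinergic genes and high for skin genes, and DMSO brain 4 also lies high for skin genes.

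The brain libraries also differed by markers. IPP brain replicates 3 and 4 lay below the mean of the brain libraries for 7 of 8 members each, and IPP replicate 4 was the lowest of the 8 for 6 of them. DMSO brain replicate 4 lay below that mean for 5 of 8 members, and DMSO brain replicates 1 and 2 lay above it for 7 of 8 each. IPP brain replicates 1 and 2 lay above it for 6 of 8 each. Here too the share of all genes below the mean in each library was not computed. The 12 cranial motor neuron genes, 1 of which was at 0 in all brain libraries, summed to 82.7, 83.9, 51.7 and 48.2 FPKM in IPP brains 1 to 4, against 74.7, 73.9, 68.1 and 51.9 FPKM in DMSO brains 1 to 4. The 9 habenula genes summed to 160, 155, 150 and 177 FPKM in IPP brains, against 162, 154, 158 and 148 FPKM in DMSO brains. Of these habenula genes 4 lay lower and 5 higher in IPP brains, with a median log2 change of 0.13. The 12 mature neuron genes summed to 2741, 2722, 2473 and 2297 FPKM in IPP brains, against 2931, 2832, 2660 and 2417 FPKM in DMSO brains, and all 12 had lower means in IPP brains with a median log2 change of -0.09. In both groups replicate 4 had the lowest neuron sum. The 16 brain region genes summed to 579.7, 556, 489.9 and 426 FPKM in IPP brains, against 592, 569, 524 and 404 FPKM in DMSO brains. Photoreceptor genes summed to 7.07, 10.2, 38.1 and 174 FPKM in IPP brains, against 6.58, 12.3, 35.2 and 3.499 FPKM in DMSO brains. Of the photoreceptor genes tested 10 of 10 lay higher in IPP brains, with a median log2 change of 0.94. The 10 blood cell genes, 1 of them at 0 in all brain libraries, summed to 545, 642, 983 and 417 FPKM in IPP brains, against 346, 589, 399 and 359.8 FPKM in DMSO brains, and 9 of the 9 tested had higher means in IPP brains with a median log2 change of 0.44. The skin and muscle sums given above were high in IPP replicate 4 and in DMSO replicate 4. Without IPP replicates 3 and 4, left out after seeing the data, 6 of 8 members turned to a higher level in IPP brains, ache at a log2 change of 0.16 and chata at 0.14. That removal was one-sided and took out the IPP brains that lay low for most members, so the turn follows in part from the choice. The share of all genes that turned was not computed. DMSO brain replicate 4, at 2060 FPKM of skin genes and 1213 FPKM of muscle genes, stayed in. The part of these marker differences in the cholinergic values was not tested.

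The response of the eyes was compared with that of the brains as an interaction, eye change minus brain change, over genes tested in both tissues. Of 8 members tested 0 passed the adjusted threshold in limma, where 0.0% of the 15856 genes tested passed, and limma-voom also called 0. At an unadjusted p under 0.05 limma listed 1 member, where 4.04% of all genes tested were listed, 2.6% lower and 1.43% higher. That member was chrna6, with a difference of -0.68 (SE 0.26, 95% interval -1.22 to -0.13) and an adjusted p of 1.0 in limma. Its brain values rested on few reads, 23 to 51 per DMSO library and 35 to 67 per IPP library. With quantile scaling, and without IPP replicates 3 and 4, limma did not list chrna6, and with the filter at 2 FPKM it was not tested. Over the alternatives its difference ran from -0.92 to -0.53. The mean of chrna6 lay lower in IPP eyes and higher in IPP brains, as given above. chrnb3b was not tested here, since its brain level was too low. With no filter its difference was -0.79 (SE 0.35), on 6 to 26 reads per brain library. limma then listed it at an unadjusted p under 0.05, as it did 539 genes lower and 406 higher of 24882 tested. It did not pass after adjustment. For ache the difference was -0.26 (SE 0.20), for slc18a3a -0.30 (SE 0.21) and for chata -0.14 (SE 0.24). The intervals of these 3 differences all included 0. chrnb3a differed by -0.03 (SE 0.19), since it lay lower in IPP eyes and in IPP brains by similar amounts. Without IPP replicates 3 and 4 of both tissues, left out after seeing the data, the differences were larger. They were -0.41 for ache, -0.40 for chata and -0.44 for slc18a3a. In brains these IPP libraries held the lowest values of all 3 genes, so leaving them out raised the brain changes by construction. DMSO brain replicate 4, with its high skin and muscle sums, stayed in. limma then listed ache and chata at an unadjusted p under 0.05, both lower, against 2.78% of all genes lower and 1.82% higher. After this choice of libraries that listing is no independent evidence of a difference. The smallest adjusted p of a member in limma was 0.949. No member's eye response was thus shown to differ from its brain response after adjustment.

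**Figure D4:**
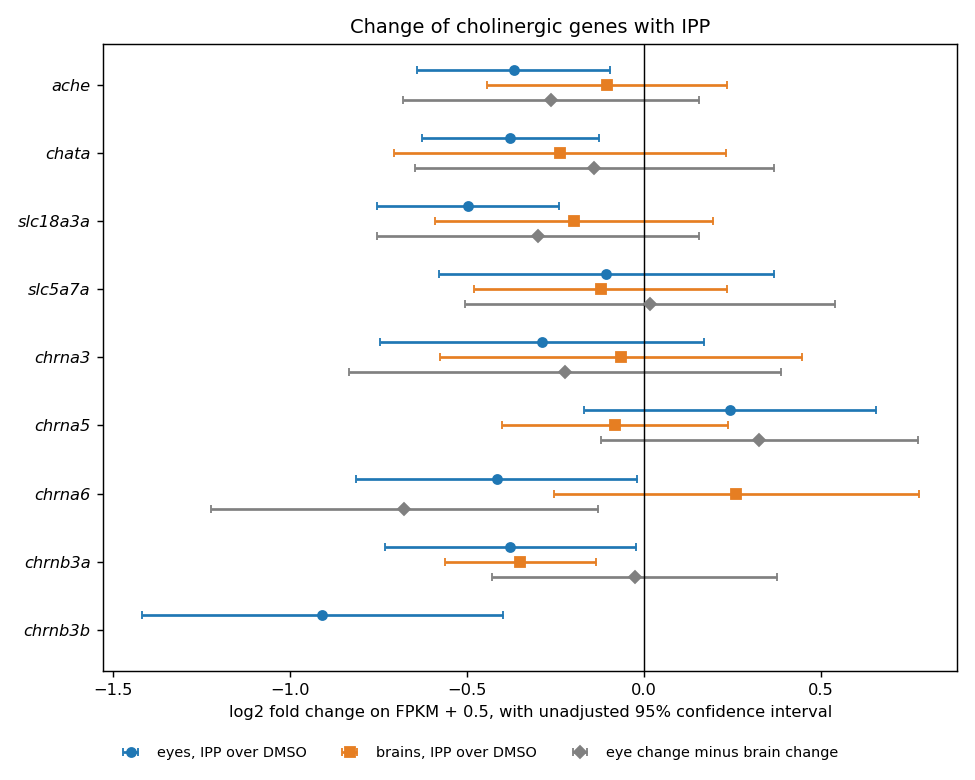
Log2 change, IPP minus DMSO on log2(FPKM + 0.5), of each cholinergic gene in eyes and in brains, and the eye change minus the brain change, with unadjusted 95% intervals. In eyes 8 of 9 genes lie to the left of 0, with chrnb3b farthest at -0.91, and in brains the interval of chrnb3a alone lies wholly to the left of 0.

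Further cholinergic genes were described by lists of roles. The list of acetylcholine synthesis, loading and uptake holds the members chata, slc18a3a and slc5a7a, already counted above. All 3 lay lower in IPP eyes, 2 at an unadjusted p under 0.05 in limma, where 5.73% of all genes tested lay lower. All 3 lay lower in IPP brains, 0 at that level, where 1.36% of all genes tested lay lower. For acetylcholinesterase and its anchors both genes tested in eyes lay lower there, and in IPP brains 2 lay lower and 1 higher. The second gene was prima1, listed as si:dkey-85n7.6 and named prima1 in the reference gene table, which codes for the membrane anchor of acetylcholinesterase. It had 3.89, 4.81, 2.82 and 3.43 FPKM in IPP eyes, against 6.47, 6.58, 5.62 and 5.31 FPKM in DMSO eyes. The groups did not overlap, and the log2 change of prima1 was -0.63 (SE 0.16) with an adjusted p of 0.303 in limma. In brains prima1 had 4.90, 5.07, 4.97 and 3.02 FPKM with IPP, against 5.99, 5.54, 6.52 and 5.10 FPKM with DMSO. There too the groups did not overlap, by a narrow margin, and the log2 change was -0.35 (SE 0.17, adjusted p 1.0 in limma). Of 11 neuronal nicotinic subunit genes tested in eyes, members included, 10 lay lower and 1 higher in IPP eyes, with a median log2 change of -0.26. At an unadjusted p under 0.05 limma listed 4, all lower, against 5.73% of all genes tested lower and 5.3% higher. Those listed were the members chrna6, chrnb3a and chrnb3b, already counted above, and chrnb2b. chrnb2b, a partner subunit of many neuronal nicotinic receptors, had 6.25 ± 0.854 FPKM in IPP eyes and 7.87 ± 0.862 FPKM in DMSO eyes, with an adjusted p of 0.429 in limma. In brains 10 were tested, 7 lower and 3 higher, with a median of -0.10.

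Genes of the other roles lay in both directions, except the 2 chaperone genes tested in eyes. Of the muscle nicotinic and endplate genes, 2 lay lower and 2 higher in IPP eyes, and 1 lower and 3 higher in IPP brains. Of the muscarinic receptor genes, 2 lay lower and 1 higher in IPP eyes, and 2 lower and 3 higher in IPP brains. chrm2a, a muscarinic receptor gene, had 1.71 ± 0.607 FPKM in IPP brains and 0.901 ± 0.250 FPKM in DMSO brains, a log2 change of 0.63 (SE 0.25, adjusted p 1.0 in limma), and chrm4a lay at 23.8 ± 3.60 FPKM in IPP brains and 28.2 ± 2.43 FPKM in DMSO brains. The nicotinic receptor chaperones had 2 lower and 0 higher in IPP eyes, and 2 lower and 1 higher in IPP brains, with medians of -0.04 and -0.06. The choline supply genes had 5 lower and 7 higher in IPP eyes, and 4 lower and 7 higher in IPP brains, with medians of 0.13 and 0.10. flvcr2a, a choline transporter gene, was the 1 listed in eyes at an unadjusted p under 0.05 in limma, where 5.73% of all genes tested lay lower. It had 2.13 ± 0.264 FPKM in IPP eyes and 3.47 ± 1.08 FPKM in DMSO eyes, a log2 change of -0.55 (SE 0.22, adjusted p 0.406 in limma). Other serine hydrolases and paraoxonases, which include enzymes that organophosphates can bind or that hydrolyse them, had 5 lower and 13 higher in IPP eyes and 6 lower and 13 higher in IPP brains, with medians of 0.07 and 0.05. In none of these lists did a gene pass the adjusted threshold in limma, and the lists were chosen with earlier results known.

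Likeness to ache and to slc18a3a was described with Pearson's r on log2(FPKM + 0.5) over the 8 libraries of a tissue, which hold both treatments and share their depth and marker differences. Among 11932 genes compared in eyes, the 5 most like ache were otulinb (r = 0.983), camk2b1 (0.978), kcnh5b (0.975), gria3a (0.972) and frmpd3 (0.970). slc18a3a ranked 42nd for ache in eyes, with r = 0.929, and 1028th in brains, with r = 0.777. In eyes the other members compared ranked from 86th (chrnb3b, r = 0.898) to 7383rd (chrna5, r = -0.127) for ache. In brains, among 12235 genes, the 5 most like ache were cyp26b1 (0.995), sec22c (0.986), zic6 (0.984), grin1b (0.984) and ssrp1b (0.981). For slc18a3a in eyes they were slc35g2b (0.992), gria4a (0.990), rtn1a (0.988), timm29 (0.988) and pcp4a (0.983). In brains the list for slc18a3a was c1galt1a (0.982), opa1 (0.979), chrna5 (0.978), zic2a (0.977) and zic5 (0.970), so a nicotinic subunit gene was the third.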

How the data were processed

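Expression was deposited by the authors as FPKM, in a table for eyes and a table for brains, beside identifiers, symbols, lengths and coordinates. The submitters' processing notes name HISAT2 2.0.5 together with featureCounts 1.5.0-p3 but not what each was used for. Genome build, annotation and strand setting: not given in the sources used here. FPKM times gene length gave whole reads to within 0.01 read in 100% of the values, and these reads were used only for depth and for limma-voom. TPM was computed from the FPKM of each library. A gene entered the test where it averaged 0.5 FPKM or more across a tissue's 8 libraries. The fit was made in limma (3.58.1, R 4.3.3) on log2(FPKM + 0.5), using eBayes with a trend, two-sided and without covariates, with Benjamini-Hochberg adjustment over all genes tested and a threshold of 0.05. The eye minus brain contrast used the genes tested in both tissues. The fits were tested on simulated data. Besides the members, each list's 3 genes of smallest p under 0.05 and its most abundant gene could be named, from a mean of 1 FPKM. Members and lists were chosen with earlier results of these data known. Alternatives were pseudocounts of 0.1 and 1, a filter at 2 FPKM or none, TPM and quantile scaling, robust eBayes, limma-voom, a replicate block and left-out libraries. Standard errors and intervals are limma's, and counting error is only a part of them.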

Additional observations from a re-analysis of the deposited data

Results flagged for a closer look

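Of 36 gene and group combinations looked at, 1 had a library far from the others, and chance marks about 1 in 20. IPP eye replicate 2 had 10.3 FPKM of chrnb3a, while the other 3 IPP eyes had 10.9 to 11.0 FPKM. The gap was 0.900 of the group's range, above Dixon's critical value for 4 libraries. The group's whole spread was small, with an SD of 0.299 FPKM in IPP eyes and 3.91 FPKM in DMSO eyes.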

How the results depend on the processing

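The count of genes passing the adjusted threshold was 0 to 3 in eyes when 1 library was left out, with 3 without DMSO eye replicate 4 and 1 without IPP eye replicate 1, and 0 in every other alternative run in eyes, brains and the eye minus brain contrast. Leaving out 1 library moved the log2 change of slc5a7a in eyes over -0.23 to 0.012, and in brains that of ache over -0.19 to 0.023, of chrna3 over -0.16 to 0.088 and of chrna5 over -0.17 to 0.020. In eye minus brain the ranges were -0.29 to 0.032 for chata, -0.10 to 0.14 for slc5a7a and -0.13 to 0.14 for chrnb3a. Without IPP replicates 3 and 4, chosen after seeing the data, brain changes were 0.16 for ache, 0.14 for chata, 0.032 for slc18a3a, 0.011 for slc5a7a, 0.12 for chrna3 and 0.11 for chrna5, and slc5a7a was -0.068 in eye minus brain. Without DMSO replicate 1 and IPP replicate 4 of the brains, also chosen after seeing the data, they were 0.024 for ache, 0.20 for chrna3 and 0.033 for chrna5, and -0.028 for slc5a7a in eye minus brain. chrnb3a in eye minus brain was 0.068 with TPM and 0.011 with quantile scaling. With TPM scaling, genes at an unadjusted p under 0.05 were 644 lower and 930 higher in eyes (980 and 906 with FPKM), 296 lower and 172 higher in brains (239 and 273) and 168 lower and 292 higher in eye minus brain (413 and 227). The cause was not tested. Of 528 member values, 500 kept their direction and side of the threshold. The replicate block gave 0 called genes in each comparison, with 1737 genes in eyes at an unadjusted p under 0.05. Same-numbered IPP and DMSO libraries had correlations of -0.09 to 0.33, and 0 of 8 eye and 3 of 8 brain libraries correlated best with their own number. Eye and brain of one number had -0.14 to 0.44, with 8 of 8 IPP and 3 of 8 DMSO libraries best with their own, and that block also called 0. Low read counts limit chrna3, chrna5 in eyes, and chrna6 and chrnb3b in brains.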

Other observations

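Some cholinergic genes outside the 10 names differed in level between the tissues, and these were chosen after their values were seen. chrna10a, a nicotinic subunit gene, had 23.5 ± 2.89 TPM in IPP eyes and 25.6 ± 2.14 TPM in DMSO eyes, and 0.359 ± 0.165 TPM in IPP brains and 0.723 ± 0.577 TPM in DMSO brains (SD, n = 4 each). chrna2b ran the other way, with 0.388 TPM in IPP eyes and 0.390 TPM in DMSO eyes, and 7.497 TPM in IPP brains and 9.78 TPM in DMSO brains. colq, the collagen tail that anchors acetylcholinesterase at muscle endplates, had 0.0871 TPM in IPP eyes and 0.0679 TPM in DMSO eyes, and 3.01 TPM in IPP brains and 2.47 TPM in DMSO brains. chrm4a had 8.28 TPM in IPP eyes and 8.80 TPM in DMSO eyes, and 55.1 TPM in IPP brains and 67.2 TPM in DMSO brains.

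A row without a symbol of its own, CABZ01112647.1 on chromosome 12, carries the name SLC18A3 in the reference gene table. It had 0.132, 0.643, 0.138 and 0.713 FPKM in IPP eyes, against 0.223, 0.0740, 0.358 and 0.179 FPKM in DMSO eyes. In brains it had 10.3, 9.91, 10.02 and 6.88 FPKM with IPP, against 8.04, 9.42, 9.27 and 4.40 FPKM with DMSO. Its eye values stand on 1 to 11 reads per library, and its groups overlapped in both tissues.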
